A study of Mus musculus with 8 samples.

Results

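The 37 genes described here encode the core machinery of macroautophagy and the proteins that link it to the lysosome. They were chosen by symbol for their known function, with earlier results of these data known. All 37 were found among the 55414 gene identifiers counted in mouse pancreatic islets. The islets came from C57BL/6 mice aged 5 weeks, with 4 libraries per group. The TG group has the genotype Ins2 cre(+/-) ATF4 TG(+/-), and the WT group has Ins2 cre(-/-) ATF4 TG(+/-), so every library comes from a carrier of the ATF4 transgene and the groups differ in Cre. An effect of Cre itself therefore cannot be told apart from an effect of the transgene. The series' design describes the transgenic mice as specific to the beta cell, the insulin-secreting cell of the islet, in which the Ins2 promoter is active. ATF4 is a transcription factor made when cells face amino acid shortage or endoplasmic reticulum stress, and the comparison of TG with WT islets asks which transcripts differ when its transgene is switched on in beta cells.

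Macroautophagy encloses cytoplasm in a double membrane, the autophagosome, which then fuses with a lysosome whose enzymes digest the content. The ULK kinase complex starts the process, a class III PI3-kinase complex marks the membrane with the lipid PI3P, and a ubiquitin-like conjugation system attaches ATG8 proteins (the LC3 and GABARAP families) to it. Cargo receptors hold the cargo to the ATG8 proteins, the factors TFEB and TFE3 drive transcription of lysosomal and autophagy genes, and beta cells depend on autophagy to clear damaged organelles and aged secretory granules. ATF4 and its partner CHOP are known to drive transcription of several autophagy genes, Map1lc3b and Sqstm1 among them, in cells under stress.

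The 8 libraries held between 16521087 and 22499999 reads assigned to genes, and levels are given as CPM, the count of a gene scaled by the size of its library, on which scale 3 counts come to between 0.133 and 0.182. The labels do not say whether the libraries came from separate animals, and p-values cover only how far these libraries spread, which may be technical. Atf4 itself was lower in the libraries labelled TG, at 234 to 278 CPM against 326 to 378 (log2 difference -0.43, SE 0.0855, adjusted p = 0.00226 by edgeR's quasi-likelihood test), which goes against the label if transgene reads are counted at this locus. Whether they are counted there was not tested, and TG and WT are used below as the labels of the libraries. Beta cell markers were present in every library but all 11 were lower in TG, with a summed level of 50550 to 64750 CPM against 104100 to 124800 in WT. Markers of other cells moved the opposite way. All 10 endothelial markers were higher in TG (1291 to 1337 CPM against 543 to 931), as were 6 of 10 stromal and mural markers (3348 to 6485 against 844 to 2798), 9 of 12 macrophage markers (209 to 508 against 112 to 185) and 5 of 7 duct markers (758 to 1037 against 374 to 428). The sums are over whole lists, uncalled genes included. Col3a1, which was not called (adjusted p = 0.0715 by edgeR), alone gave 1974 to 4450 CPM of the stromal sum in TG. None of the 9 acinar markers tested was called by edgeR, with 0 at an unadjusted p under 0.05, but their sum ranged from 6541 to 41960 CPM in TG and from 1288 to 12710 in WT. Fewer cells of a type and less RNA per cell cannot be told apart in these bulk libraries, and the part of this shift in the results below was not tested except where a fit with a marker score is given.

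Few of the autophagy genes differed between the groups. Of the 37, 4 were higher in TG (Wipi1, Map1lc3a, Map1lc3b and Gabarapl1), 1 was lower (Atg10), and 32 were not called at an adjusted p under 0.05 over all 20509 genes tested. With upper-quartile scaling the counts were 4 higher and 2 lower, since Atg16l1 also passed. Among all genes tested, 20.1% were called, 12.1% higher and 8.06% lower. Among the 11567 genes with a mean level within the range of these 37 (5.45 to 524 CPM), 27.7% were called, 15.4% higher and 12.3% lower, so 5 of 37 is not above the background. The median log2 difference (TG minus WT) of the 37 was -0.05, with 16 positive and 21 negative values, beside a median of -0.00 over all genes tested. Groups did not overlap for 6 of the 37 genes, beside 22.6% of all genes tested and 29.4% of those within the range of levels. TG lay above WT for 4 of them (12.6% and 15.3%) and below for 2 (9.94% and 14.2%). By edgeR, 9 of the 37 genes had an unadjusted p under 0.05, the 5 called genes and Atg9a, Atg16l1, Sqstm1 and Optn. That is 24.3%, beside 31.8% of all genes tested and 41.3% of those within the range of levels. DESeq2 called the same 5 genes.

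The intervals of the genes that were not called bound their folds, but not all of them exclude folds of the size that was called. The smallest called fold was 1.34, for Gabarapl1, and the uncalled Atg9a had a log2 difference of -0.40. An uncalled gene is therefore not shown to be unchanged. For 30 of the 32 genes the 95% interval of the fold lay within 1.5-fold in either direction, and for all 32 it lay within 2-fold. The 2 genes with wider intervals were Atg9a and Tfeb, which have the lowest levels. All 37 genes passed the filter on low counts, and the lowest count of any of them in a library was 56, for Tfeb. The coefficient of variation within a group had a median of 8.55% in TG and 10.04% in WT. The plot of fold changes by role shows how the called genes are placed within the pathway.

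**Figure D1:**
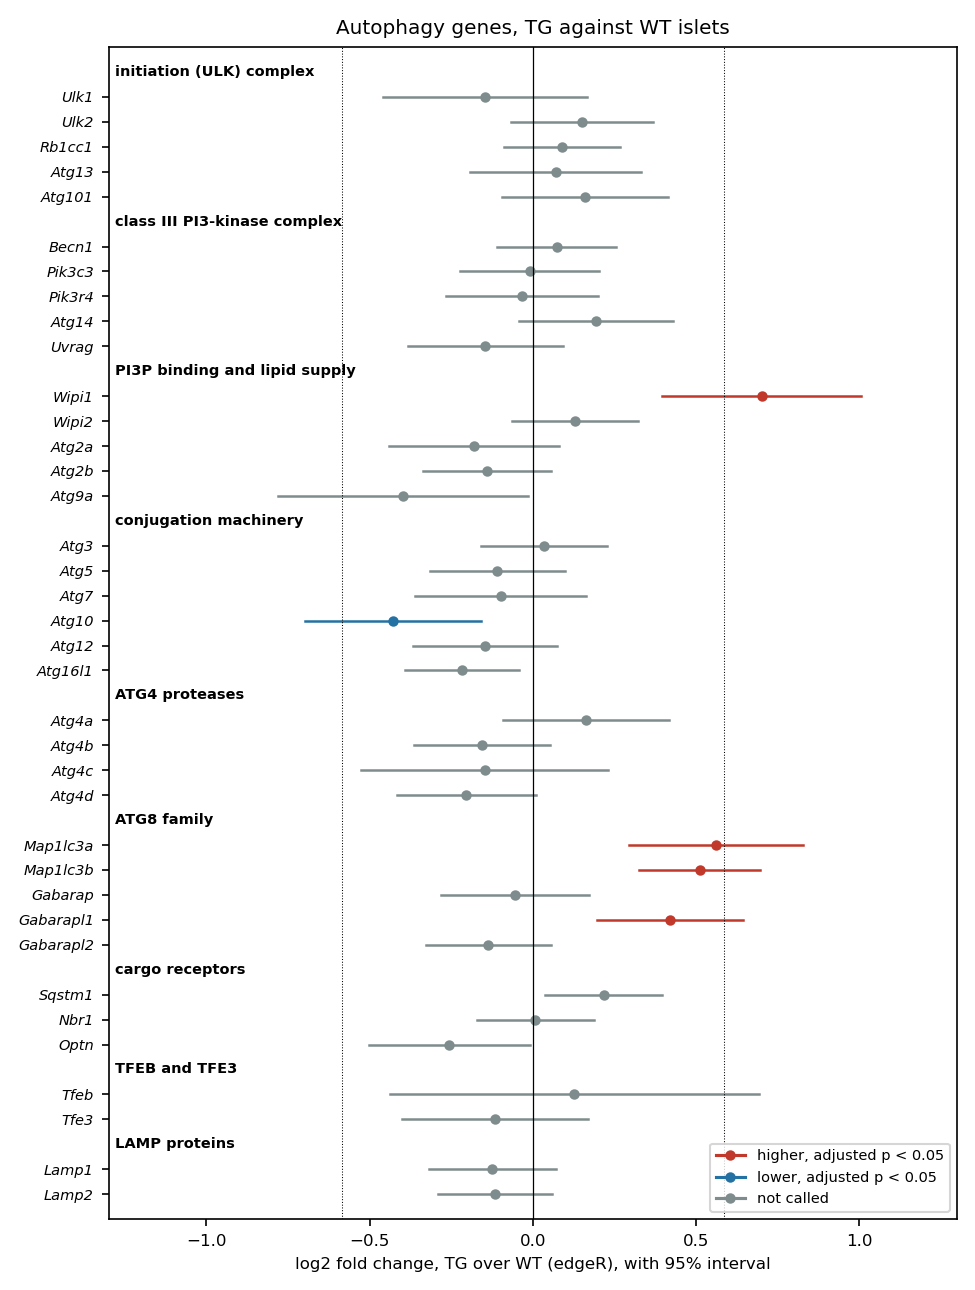
Log2 fold change of each of the 37 autophagy genes, TG over WT, with its 95% interval from edgeR's quasi-likelihood fit, grouped by role; dotted lines mark a 1.5-fold difference in either direction. The 4 genes called higher and the 1 called lower stand out in colour, and 3 of the 4 higher genes belong to the ATG8 family.

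The ATG8 family held 3 of the 4 higher genes. These small ubiquitin-like proteins are attached to phosphatidylethanolamine on the growing membrane and serve there as docking sites for cargo receptors. Map1lc3b (ENSMUSG00000031812), which encodes LC3B, the protein most used as a marker of autophagosomes, measured 149, 164, 154 and 134 CPM in the TG libraries and 97.5, 110, 113 and 102 in WT. Every TG library lay above every WT library. The means were 150 ± 12.7 and 106 ± 7.05 CPM (SD, n = 4 each), a 1.43-fold difference (log2 0.51, SE 0.0871, 95% interval 0.33 to 0.70, adjusted p = 0.000774 by edgeR's quasi-likelihood test). Map1lc3b had the lowest adjusted p of the 37 genes.

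Map1lc3a (ENSMUSG00000027602), the gene of the related protein LC3A, gave 20.0, 20.0, 20.1 and 17.5 CPM in TG and 14.2, 13.9, 12.1 and 12.3 in WT. The groups did not overlap, and 3 of the 4 TG libraries were nearly equal. The mean rose from 13.2 ± 1.09 to 19.4 ± 1.27 CPM (SD, n = 4 each), or 1.48-fold (log2 0.56, SE 0.125, adjusted p = 0.00518 by edgeR). Gabarapl1 (ENSMUSG00000030161), a member of the GABARAP branch, which acts more in autophagosome maturation, stood at 139, 156, 132 and 113 CPM in TG and 113, 104, 94.7 and 90.7 in WT. The lowest TG library and the highest WT library met at 113 CPM, and the other TG libraries lay above all of WT. The 1.34-fold difference (log2 0.42, SE 0.105) had an adjusted p of 0.0105 by edgeR. Exons of 1700101I11Rik on the other strand cover 28.3% of the Gabarapl1 exons, and that gene was at 0.428 to 0.883 CPM.

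Both remaining GABARAP genes gave values on the other side of 0 and were not called. Gabarap measured 66.9, 66.3, 55.5 and 54.6 CPM in TG and 72.1, 59.9, 65.3 and 55.1 in WT, with wide overlap (log2 difference -0.05, 95% interval -0.28 to 0.17, adjusted p = 0.789 by edgeR). Gabarapl2, also known as GATE-16, measured 46.9, 56.0, 54.2 and 55.5 CPM in TG and 57.3, 59.0, 55.9 and 61.6 in WT. Here 3 of the 4 TG libraries lay below the lowest WT library and the other just above it, and the difference was -0.14 (95% interval -0.33 to 0.05, adjusted p = 0.328). The upper bounds of Gabarap and Gabarapl2, 0.17 and 0.05, lay below the lower bounds of Map1lc3a and Map1lc3b, 0.29 and 0.33, but differences between the genes were not tested. As a share of all counts on the 5 family genes, Map1lc3b made up 35.9% ± 0.783 in TG and 31.0% ± 2.41 in WT, Gabarap 14.5% ± 1.05 and 18.5% ± 1.55, and Gabarapl2 12.8% ± 1.58 and 17.2% ± 1.36 (SD, n = 4 each). These shares describe the same counts on another scale and were not tested.

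**Figure D2:**
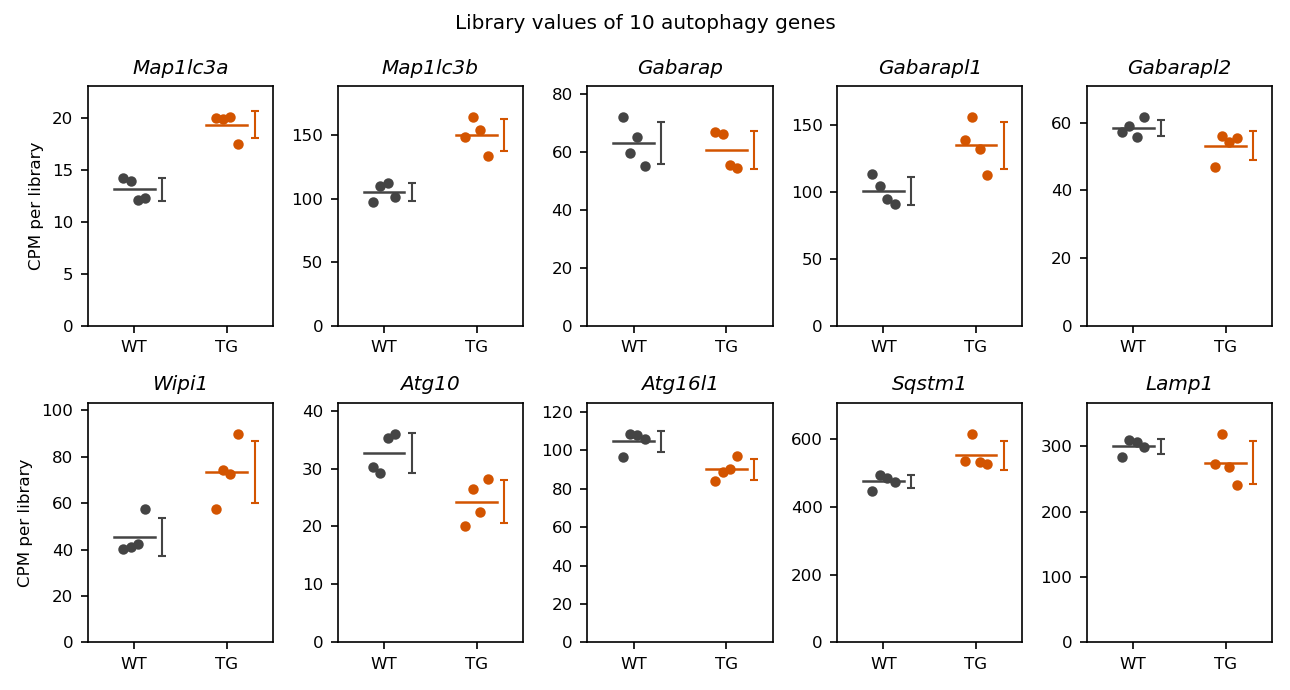
CPM per library (y axis, from 0) in WT and TG for the 5 ATG8 family genes and for Wipi1, Atg10, Atg16l1, Sqstm1 and Lamp1; each point is 1 library, the line is the mean and the bar is the SD (n = 4). Map1lc3a, Map1lc3b and Sqstm1 show no overlap with TG above, Atg10 shows none with TG below, and Gabarap overlaps widely.

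The promoter windows of 3 family genes are shown because they place a called gene of each branch beside an uncalled relative. They are the 250 bases before the annotated start in the RefSeq table of GRCm38.p6, an earlier build than the one used for counting, at chr6:129532942-129533191 (Gabarapl1, plus strand), chr8:121590188-121590437 (Map1lc3b, plus strand) and chr8:111940453-111940702 (Gabarapl2, plus strand). Capitals mark GGGCGG, the core of the GC box bound by Sp1-type factors, and TGACGT, the core of the cAMP response element, on either strand. The sequences read 5′ to 3′ in the sense of the gene.
Gabarapl1: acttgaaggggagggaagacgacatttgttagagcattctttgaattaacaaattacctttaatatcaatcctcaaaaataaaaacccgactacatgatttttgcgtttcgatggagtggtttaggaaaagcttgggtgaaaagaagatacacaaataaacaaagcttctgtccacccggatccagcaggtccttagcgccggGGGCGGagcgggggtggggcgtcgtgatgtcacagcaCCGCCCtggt
Map1lc3b: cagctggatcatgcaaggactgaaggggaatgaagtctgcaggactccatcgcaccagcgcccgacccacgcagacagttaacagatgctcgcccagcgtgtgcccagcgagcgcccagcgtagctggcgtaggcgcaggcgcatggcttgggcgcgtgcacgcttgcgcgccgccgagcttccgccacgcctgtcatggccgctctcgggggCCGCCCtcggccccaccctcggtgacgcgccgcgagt
Gabarapl2: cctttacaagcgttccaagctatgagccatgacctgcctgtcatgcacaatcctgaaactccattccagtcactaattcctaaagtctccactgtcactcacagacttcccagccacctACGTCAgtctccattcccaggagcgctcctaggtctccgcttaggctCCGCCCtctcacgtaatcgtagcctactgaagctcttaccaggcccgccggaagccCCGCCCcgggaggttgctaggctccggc
Gabarapl1 holds GC boxes that begin 47 and 10 bases before the start, Map1lc3b holds 1 at 37, and Gabarapl2 holds 2 at 84 and 28 with a TGACGT core at 131. All 3 promoters therefore hold a GC box, the 2 called genes and the uncalled one alike. None holds TGATGNAA, the core of the C/EBP-ATF response element that ATF4 binds with C/EBP partners. The windows of Gabarapl1, Map1lc3b and Gabarapl2 are 46.8%, 69.6% and 57.2% G and C.

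Wipi1 showed the largest fold of the 37 genes. It encodes a propeller protein that binds PI3P on the forming autophagosome. Wipi1 (ENSMUSG00000041895) measured 57.3, 74.4, 72.6 and 89.9 CPM in TG and 40.0, 41.1, 42.5 and 57.5 in WT. The fourth WT library stood apart from the other WT libraries and slightly above the lowest TG library, so the groups overlapped by that pair. Means were 73.6 ± 13.3 and 45.3 ± 8.20 CPM (SD, n = 4 each), a 1.62-fold difference (log2 0.70, SE 0.142, 95% interval 0.40 to 1.01, adjusted p = 0.00337 by edgeR). The relative Wipi2, which recruits ATG16L1 to the membrane, was at 128 ± 12.3 CPM in TG and 117 ± 9.05 in WT and was not called (log2 0.13, adjusted p = 0.364).

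The Wipi1 promoter is printed for its run of GC boxes, again as the 250 bases before the start (GRCm38.p6, chr11:109611390-109611639, minus strand) with each GGGCGG in capitals.
Wipi1: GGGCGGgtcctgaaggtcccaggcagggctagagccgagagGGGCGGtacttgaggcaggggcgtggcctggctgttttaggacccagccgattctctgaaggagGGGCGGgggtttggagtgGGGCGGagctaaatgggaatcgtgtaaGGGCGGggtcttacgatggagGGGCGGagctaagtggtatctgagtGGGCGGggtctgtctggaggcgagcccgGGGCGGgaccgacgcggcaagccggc
The 300-base window, with 50 bases after the start, holds 9 GC boxes, and 8 of them are in the stretch shown. Of all 27025 genes in the promoter table, 40 (0.148%) have at least as many, and of the 13495 genes tested that have a window, 36 (0.267%) do. This count was looked at after the values of Wipi1 were known and says nothing of binding.

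The other genes of lipid supply were not called and had negative log2 values. ATG2 proteins carry lipids from the endoplasmic reticulum to the growing membrane, and Atg2a and Atg2b gave -0.18 (adjusted p = 0.349) and -0.14 (adjusted p = 0.327) by edgeR. Atg9a encodes the lipid scramblase of the vesicles that seed the membrane. It measured 8.21, 7.60, 9.93 and 6.67 CPM in TG and 10.5, 10.6, 12.9 and 8.62 in WT, with overlap between the highest TG and the lowest WT libraries. The difference of -0.40 (SE 0.179, 95% interval -0.78 to -0.02) did not pass the adjustment (adjusted p = 0.14 by edgeR). A same-strand neighbour, Gm29253, overlaps 31.8% of the Atg9a exons in the GENCODE M21 annotation, and was itself at 0 to 0.0570 CPM. Whether reads on the shared exons were set aside as ambiguous was not tested, and the low level of Gm29253 does not settle it.

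Atg10 was the only member called lower. It encodes the E2-like enzyme that joins ATG12 to ATG5, a step needed for the complex that lipidates ATG8 proteins. Atg10 (ENSMUSG00000021619) measured 20.0, 26.4, 22.4 and 28.2 CPM in TG and 30.3, 29.2, 35.3 and 36.0 in WT. Every TG library lay below every WT library. The mean fell from 32.7 ± 3.43 to 24.3 ± 3.72 CPM (SD, n = 4 each), 1.35-fold lower (log2 -0.43, SE 0.127, adjusted p = 0.026 by edgeR). The call was lost on leaving out the first TG library (-0.34, adjusted p = 0.0803), the third TG library (-0.43, 0.0612), the third WT library (-0.40, 0.0562) or the fourth WT library (-0.39, 0.0724).

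None of the partners of Atg10 in conjugation was called. Atg16l1, which places the ATG12-ATG5 conjugate on the membrane, measured 83.8, 88.8, 90.4 and 97.2 CPM in TG and 96.5, 109, 108 and 106 in WT. The highest TG library lay just above the lowest WT library, and the difference of -0.22 (SE 0.0825, adjusted p = 0.0785 by edgeR) missed the threshold. It passed with upper-quartile scaling (-0.26, adjusted p = 0.0315) and without the fourth TG library (-0.29, adjusted p = 0.029). Atg3, the E2-like enzyme for ATG8 proteins, was at 116 ± 9.57 CPM in TG and 113 ± 9.85 in WT. Atg7, the E1-like enzyme that serves both conjugation arms, was at 20.7 ± 1.22 and 22.2 ± 3.12 CPM. Atg5 and Atg12, the other members of the conjugate, gave log2 differences of -0.11 and -0.15, and none of Atg3, Atg5, Atg7 and Atg12 was called (adjusted p from 0.368 to 0.842 by edgeR).

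The promoters of Atg10, the called gene, and Atg3, its counterpart in the ATG8 arm, are shown as the 250 bases before the start in GRCm38.p6, at chr13:91223988-91224237 (minus strand) and chr16:45158579-45158828 (plus strand). Capitals mark the GC box and the cAMP response element core named before and, in Atg3 alone, the E-box, CACGTG. They also mark the core of the CLEAR element bound by TFEB and TFE3, which is TCACGTGA and so contains an E-box.
Atg10: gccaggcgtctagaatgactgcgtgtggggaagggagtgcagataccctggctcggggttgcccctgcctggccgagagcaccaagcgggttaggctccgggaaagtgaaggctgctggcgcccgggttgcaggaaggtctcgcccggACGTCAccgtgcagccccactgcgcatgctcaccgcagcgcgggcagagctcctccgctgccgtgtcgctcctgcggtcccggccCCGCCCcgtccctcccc
Atg3: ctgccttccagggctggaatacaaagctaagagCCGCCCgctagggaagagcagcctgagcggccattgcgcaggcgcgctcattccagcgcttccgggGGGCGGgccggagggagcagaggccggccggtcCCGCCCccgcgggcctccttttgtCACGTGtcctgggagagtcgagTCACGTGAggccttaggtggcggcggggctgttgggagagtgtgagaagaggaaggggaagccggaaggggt
In the window as the table gives it, whose orientation could not be checked against a transcript for Atg10, there is a TGACGT core 102 bases before the start and a GC box at 17. Atg3 is the only one of the 31 members with a window that holds TCACGTGA, at 72 bases before the start, beside a separate E-box at 94. Atg3 gave a log2 difference of 0.03, and was not called (adjusted p = 0.842 by edgeR).

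The ATG4 proteases cut new ATG8 proteins to expose the glycine that is conjugated, and later release them from the membrane. None of the 4 genes was called. Atg4d measured 31.6, 34.9, 30.3 and 28.6 CPM in TG and 35.5, 38.8, 35.2 and 35.01 in WT. The groups of Atg4d did not overlap, with TG below WT, but the difference of -0.20 (SE 0.100) had an adjusted p of 0.179 by edgeR. Exons of Kri1 on the other strand cover 19.3% of the Atg4d exons, and whether reads were counted by strand is unknown here. The same limit holds for other members with such overlap, such as Becn1 (43.9%, by Cntd1), Uvrag (17.6%, by Gm45187) and Sqstm1 (17.3%, by Mrnip). Atg4b, the protease with the broadest activity, was at 49.95 ± 3.36 CPM in TG and 55.6 ± 5.92 in WT (-0.16, adjusted p = 0.307). Atg4a spread widely in TG, from 39.1 to 60.7 CPM, around WT values of 41.8 to 45.2. Atg4c was at 9.61 ± 1.90 CPM in TG and 10.7 ± 1.31 in WT (-0.15, adjusted p = 0.631).

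The 5 genes of the ULK initiation complex were not called. Ulk1, the kinase that receives mTORC1 and AMPK signals, measured 15.8, 17.0, 20.7 and 21.1 CPM in TG and 16.5, 22.4, 24.4 and 19.2 in WT. The groups overlapped over most of their range (-0.15, SE 0.147, adjusted p = 0.554 by edgeR). Its relative Ulk2 gave 0.15, and the scaffold genes Rb1cc1 (which encodes FIP200), Atg13 and Atg101 gave 0.09, 0.07 and 0.16, with adjusted p from 0.35 to 0.756 over the 4. Rb1cc1 had the highest CPM of the 5, at 182 ± 4.36 in TG and 171 ± 15.8 in WT. Per kilobase of exon, however, Atg101 was higher, at 18.0 in TG and 16.2 in WT against 12.4 and 11.6 for Rb1cc1.

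Class III PI3-kinase genes gave the same picture, with 0 of 5 called by edgeR and 0 with an unadjusted p under 0.05. DESeq2 called none of these 5 either. Becn1, the Beclin 1 scaffold that BCL2 can hold inactive, measured 102, 126, 109 and 117 CPM in TG and 107, 104, 115 and 106 in WT. The ranges overlapped fully (0.07, SE 0.0859, adjusted p = 0.619 by edgeR). Pik3c3, the kinase VPS34, and Pik3r4, its VPS15 partner, gave -0.01 and -0.03. Atg14 directs the complex to autophagosome formation, whereas Uvrag directs it to endosomes. Atg14 measured 32.1, 32.8, 31.2 and 31.9 CPM in TG and 30.9, 30.6, 23.1 and 27.3 in WT. Its groups did not overlap, yet the closest libraries were nearly level and the difference of 0.19 (SE 0.111) had an adjusted p of 0.253. Uvrag gave -0.15 (adjusted p = 0.412).

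Of the cargo receptors, none passed the threshold. Sqstm1, which encodes p62, the receptor for ubiquitinated aggregates, was the most abundant member per length of transcript. It measured 534, 616, 534 and 525 CPM in TG and 447, 493, 486 and 474 in WT. All TG libraries lay above all WT libraries, with the second TG library far above the others. The 1.16-fold difference (log2 0.22, SE 0.0842, 95% interval 0.04 to 0.40) had an adjusted p of 0.0845 by edgeR, and no setting tried brought it under 0.05 (adjusted p from 0.0501 to 0.879 over 20 alternatives). Nbr1, a receptor that works with p62, was at 526 ± 36.7 CPM in TG and 522 ± 25.4 in WT (0.01, adjusted p = 0.963). Optn, the receptor optineurin that acts in mitophagy, was at 25.0 ± 1.61 and 29.9 ± 3.85 CPM (-0.26, adjusted p = 0.141).

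TFEB and TFE3, the factors that drive transcription of lysosomal genes, are controlled mainly by phosphorylation and entry into the nucleus, which transcript levels do not show. Tfeb measured 4.75, 5.11, 7.02 and 5.87 CPM in TG and 2.71, 5.76, 7.17 and 5.19 in WT. The WT values enclosed all TG values, and the difference of 0.13 had the widest interval of the 37 genes (-0.44 to 0.69, adjusted p = 0.799 by edgeR). Tfe3 was at 17.8 ± 2.48 and 19.4 ± 1.89 CPM (-0.12, adjusted p = 0.611). Lamp1 and Lamp2 encode the main glycoproteins of the lysosomal membrane, and LAMP2 is needed for fusion and for chaperone-mediated autophagy. Lamp1 gave 275 ± 32.5 CPM in TG and 300 ± 11.2 in WT, and Lamp2 gave 303 ± 12.4 and 329 ± 24.1, each with a log2 difference of -0.12 (adjusted p = 0.391 and 0.375 by edgeR).

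Levels of different genes are compared per kilobase of exon, with lengths from GENCODE M21. Full lengths were used, also where exons overlap those of another gene, as in Atg9a and Sqstm1. In WT the order began with Sqstm1 at 142 CPM per kilobase, Lamp1 at 112, Nbr1 at 76.0 and Gabarapl1 at 50.04, and ended with Tfe3 at 2.09, Atg9a at 1.85 and Tfeb at 0.919. Atg3, Lamp2 and Gabarap, at 35.8, 34.4 and 34.2, followed Gabarapl1 and did not differ from each other beyond their spread. Sqstm1, Lamp1 and Nbr1 also led in TG, at 165, 103 and 76.5, and the top 4 and the bottom 3 were made up alike. Between these ends both called and uncalled genes moved in rank. The uncalled Optn went from rank 21 in WT to 25 in TG and Atg14 from 26 to 23, while the called Gabarapl1 stayed at 4. From WT to TG, Map1lc3b went from rank 14 to 9, Wipi1 from 20 to 13 and Map1lc3a from 17 to 14, while Atg10 went from 9 to 16.

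Promoter windows were at hand for 31 of the 37 genes (Map1lc3a, Atg16l1, Atg12, Becn1, Pik3c3 and Rb1cc1 had none). TGATGNAA was in 0 of the 31, against 4.51% of all 27025 genes in the table and 3.19% of genes tested. TCACGTGA was in 1 of 31 (3.23%, against 1.12% and 1.82%), and CACGTG in 5 (16.1%, against 8.09% and 10.5%): Atg14, Atg3, Atg5, Atg7 and Lamp1, none of them called. Among lysosomal genes 10 of 59 windows (16.9%) held TCACGTGA. TGACGT and GGGCGG were added after the values were seen. TGACGT was in 6 of 31 (19.4%, against 8.37% and 11.6%), Atg10 being the one called gene among them, and GGGCGG in 22 (71.0%, against 38.2% and 60.6%). Each motif was searched on both strands of 300 bases, and the median share of G and C was 60.7% in the members' windows, 52.8% in all and 59.3% in those of tested genes. These matches describe the letters of the windows, and elements elsewhere, such as in introns, were not looked at.

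The rest of the pathway was read from lists chosen for function, again with earlier results of these data known. Over all genes tested, 12.1% were higher and 8.06% lower, which is the background for the counts in every list below. Of 51 other autophagy genes, 4 were higher and 7 lower, with a median log2 difference of -0.03. Among 21 receptors for other cargo, 3 were higher, 2 were lower and 16 were not called. Retreg1 (FAM134B), a receptor for turnover of the endoplasmic reticulum, went from 22.3 ± 3.36 CPM in WT to 53.1 ± 11.6 in TG, with no overlap (log2 1.25, SE 0.150, adjusted p = 5.45e-05 by edgeR). Stbd1, a glycogen receptor, went from 6.17 ± 3.13 to 30.2 ± 9.43 CPM (log2 2.28, SE 0.383, adjusted p = 0.00456), and Bnip3l (NIX), a mitophagy receptor, from 101 ± 8.12 to 134 ± 3.96 (0.41, adjusted p = 0.00253). Ccpg1, another receptor for the endoplasmic reticulum and the other lower gene of the list beside Tollip, was chosen for mention after its values were seen: it was at 2.80 ± 0.531 CPM in TG and 4.95 ± 0.389 in WT (-0.82, adjusted p = 0.0207). The call on Ccpg1 was lost without WT replicate 2 (adjusted p = 0.0618). The other receptors for the endoplasmic reticulum in the list, Retreg2 (-0.22), Retreg3 (-0.16), Sec62 (-0.20), Rtn3 (0.00), Tex264 (0.00) and Atl3 (0.09), were not called.

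Of 17 core regulators and scaffolds, Bcl2 was higher (9.49 ± 1.22 CPM in WT, 14.4 ± 1.95 in TG, log2 0.60, adjusted p = 0.0137 by edgeR) and 3 were lower. BCL2 binds and restrains Beclin 1, whose own gene was not called. The lower genes were Atg16l2, a relative of Atg16l1 (66.1 ± 3.40 to 48.4 ± 2.38 CPM, -0.45, adjusted p = 0.00173), Nrbf2, a subunit of the ATG14-containing PI3-kinase complex (-0.38, adjusted p = 0.0272), and Ambra1, a Beclin 1 partner (-0.34, adjusted p = 0.0385). The Nrbf2 call was lost without TG replicate 1 or 2 or WT replicate 1, 2 or 3 (adjusted p up to 0.071) and with no filter (0.0516). That on Ambra1 was lost without TG replicate 1, 2 or 3 or WT replicate 1, 2 or 3 (up to 0.112) and with the replicate block (0.0503), and that on Bcl2 without TG replicate 3 or WT replicate 2 (up to 0.0666). Of 13 fusion genes, 0 were higher and 2 lower: Rab7, the small GTPase of late endosomes (-0.31, adjusted p = 0.0187), and Vps11, a tethering subunit (-0.31, adjusted p = 0.0371). The call on Rab7 was lost without WT replicate 1 (adjusted p = 0.0542). That on Vps11 was lost without TG replicate 1 or 3 or WT replicate 1, 2 or 4 (adjusted p up to 0.111) and with the acinar covariate (0.106), and Vps11 was at -0.05 with the vascular and stromal one. By edgeR, 4 of the 13 fusion genes had an unadjusted p under 0.05.

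Of 74 lysosomal genes, 9 were higher and 5 lower (median -0.06), beside 12.1% and 8.06% of all genes tested. All 9 higher genes were among the 40 hydrolases and activators, of which 2 were lower, and the difference between kinds of lysosomal gene was not tested. Ctsl, the protease cathepsin L, went from 346 ± 27.4 to 486 ± 28.2 CPM (log2 0.49, SE 0.0866, adjusted p = 0.000972 by edgeR), Ctsc from 11.7 ± 4.68 to 35.2 ± 3.15 (1.58, adjusted p = 0.00033) and Ctsh from 4.81 ± 1.296 to 12.7 ± 3.19 (1.39, adjusted p = 0.000555). Asah1, acid ceramidase, went the other way (240 ± 21.4 to 173 ± 9.63, -0.48, adjusted p = 0.00126), as did Arsb, the sulfatase arylsulfatase B, named here after its values were seen (43 ± 3.56 to 34 ± 4.59, -0.34, adjusted p = 0.0429). The call on Arsb was lost in 6 of the 8 fits that leave out 1 library (without TG replicate 1, 2 or 3 or WT replicate 1, 2 or 3, adjusted p up to 0.123) and with the acinar covariate (0.0739). Of the 18 genes of the V-ATPase, the proton pump that acidifies lysosomes and also secretory granules, 3 were lower, Atp6v1e1 (-0.32), Atp6v0a1 (-0.35) and Atp6v1d (-0.33), and none was higher. The call on Atp6v0a1 was lost without TG replicate 1 or WT replicate 4 and with the acinar covariate (adjusted p up to 0.0848). That on Atp6v1d was lost without TG replicate 1 or 3 or WT replicate 1 or 4 and with the acinar covariate (up to 0.0899), and Atp6v1d was at -0.10 and -0.09 with the vascular and macrophage covariates. Of 16 lysosomal membrane genes none was called by edgeR, and 1 had an unadjusted p under 0.05.

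Upstream of autophagy, 4 of 45 genes were higher and 8 lower (median -0.06). The shares were 12.1% and 8.06% over all genes tested, and 15.4% and 12.3% among those within the range of levels of the 37. Among 36 genes of mTORC1, its lysosomal scaffold and AMPK, 2 were higher and 7 lower. Both higher genes encode inhibitors of mTORC1: Sesn2, the leucine sensor Sestrin 2 and a known ATF4 target, went from 29.1 ± 3.94 to 66.8 ± 17.2 CPM (log2 1.198, SE 0.174, adjusted p = 0.000528 by edgeR), and Deptor from 57.0 ± 4.94 to 83.5 ± 11.0 (0.55, adjusted p = 0.00175). Other genes of the list that restrain mTORC1, Sesn1, Sesn3, Ddit4, Tsc1 and Tsc2 among them, were not called higher. Flcn (-0.45, adjusted p = 0.00179) and Fnip2 (-0.46, adjusted p = 0.00142), whose products form a complex that acts on the Rag GTPases, were lower. The other lower genes of the list are not named here, and its lowest log2 difference was -0.54. Of 9 transcription factors, Nfe2l2 (37.01 ± 2.69 to 51.0 ± 1.74 CPM, 0.46, adjusted p = 0.00222) and Cebpb (6.72 ± 2.69 to 13.98 ± 2.12, 1.05, adjusted p = 0.00593) were higher, and Atf4 was the 1 that was lower. Ddit3, which encodes CHOP, was at 37.7 ± 1.08 CPM in TG and 32.5 ± 2.03 in WT and was not called (0.22, adjusted p = 0.126). The plot of all lists sets these values beside the 37 genes.

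**Figure D3:**
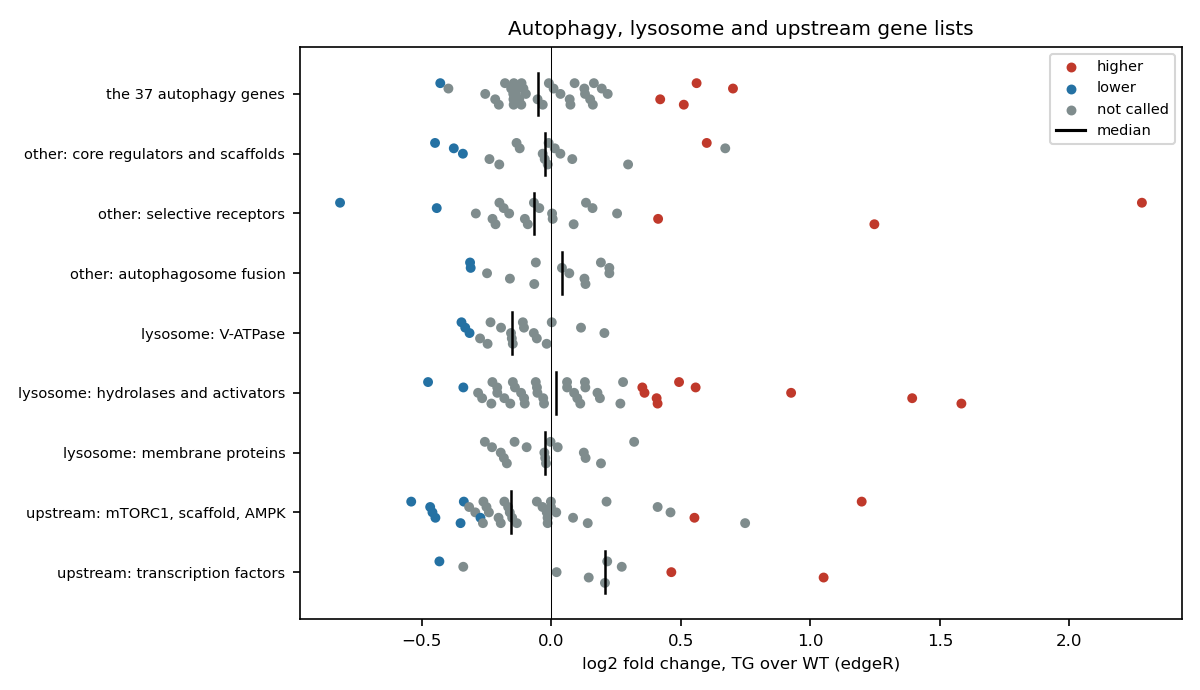
Log2 fold change, TG over WT, of every gene in the 37-gene set and in 8 lists of the wider pathway; each point is 1 gene, coloured where it was called, and the black bar is the list's median. Medians lie between -0.16 and 0.21, and the genes beyond a log2 of 1 in either direction lie outside the 37.

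A list of 12 autophagy genes reported in the literature to depend on ATF4 or CHOP held 1 higher gene (Map1lc3b), 1 lower gene (Atg10) and a median of -0.08. It was written from general knowledge of other cell types and is given as a description. The count of 1 higher in 12 stands beside 12.1% of all genes tested.

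The fit was repeated with marker scores of other cells as covariates. With the mean log2 level of the endothelial and stromal markers as a covariate, edgeR called 0 of the 37 genes (8 had an unadjusted p under 0.05), and with the macrophage markers 0 (2 with an unadjusted p under 0.05). The standard errors were 2.18 and 2.15 times as large at the median, since the scores differ between the groups. Over all genes tested, these covariates left 125 and 102 genes called higher, beside 2475. Under the first of these covariates the log2 values were Map1lc3a 0.68, Map1lc3b 0.43, Gabarapl1 0.50, Wipi1 1.04 and Atg10 -0.45 (adjusted p = 0.38, 0.455, 0.49, 0.122 and 0.611). With the macrophage covariate Map1lc3a was 0.50, Wipi1 1.001 and Atg10 -0.42, whereas Map1lc3b was 0.27 and Gabarapl1 0.18 (adjusted p = 0.559, 0.181, 0.62, 0.632 and 0.841).

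TG replicates 2 and 3 had the highest macrophage sums, 508 and 426 CPM, against 209 to 255 in the other 2 TG libraries. Much of that gap came from Lyz2, at 274 and 189 CPM in this pair and 56.6 and 37.1 in TG replicates 1 and 4. Without the pair, edgeR called Map1lc3b alone of the 37 (0.38, adjusted p = 0.0384), while Wipi1 was at 0.66 (adjusted p = 0.055), Map1lc3a at 0.47 (0.109), Gabarapl1 at 0.28 (0.211) and Atg10 at -0.48 (0.0886). Over all genes the same fit called 1267 higher and 987 lower. Of the other named genes, Bnip3l (0.36, adjusted p = 0.0567 by edgeR), Nfe2l2 (0.38, 0.0664), Cebpb (0.85, 0.0908) and Rab7 (-0.32, 0.1) lost their calls in that fit. So did Ambra1, Arsb, Atp6v1d, Bcl2 and Nrbf2. The fold of Retreg1 was 1.26 on the log2 scale in that fit (adjusted p = 0.00128) and that of Ctsc 1.62 (0.00366), but with the vascular and stromal covariate Ctsc was at 0.43 (adjusted p = 0.592), Ctsh at 0.39 (0.837) and Stbd1 at 0.57 (0.691), against the 1.58, 1.39 and 2.28 first given. With that covariate Retreg1 was at 0.77 (0.379) and Sesn2 at 1.54 (0.0496), and with the macrophage one they were at 0.92 (0.277) and 1.025 (0.361). With the macrophage covariate Ctsh was at 0.85 (0.524), Tollip at -1.01 (0.0303, against -0.44 with no covariate) and Cebpb at 0.06 (0.976).

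When single libraries were left out, all 4 higher genes stayed called in each of the 8 fits. Their log2 values ranged from 0.46 to 0.54 for Map1lc3b, 0.51 to 0.60 for Map1lc3a, 0.34 to 0.48 for Gabarapl1 and 0.56 to 0.83 for Wipi1. With the mean level of the acinar markers as covariate, the same 4 passed, and Atg10 did not (-0.36, adjusted p = 0.0866). Of the family genes not called, Gabarap ranged from -0.29 to 0.01 over all alternatives and Gabarapl2 from -0.23 to 0.05. The plot of settings gives these values for 6 genes.

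**Figure D4:**
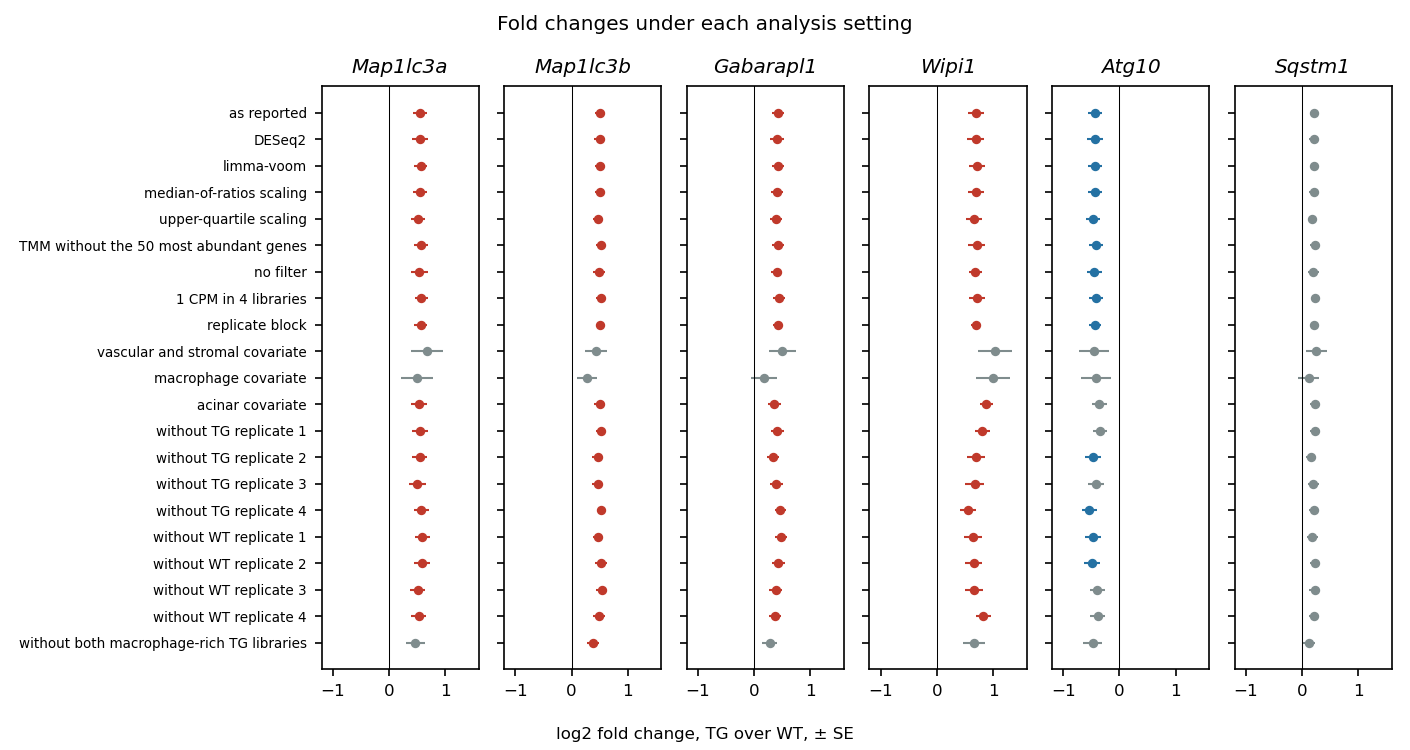
Log2 fold change, TG over WT, with its SE (x axis) for 6 autophagy genes as reported and under 20 alternatives (rows); red and blue mark values called higher and lower, grey those not called. The estimates keep their sign in every row, and the calls are lost with a vascular and stromal or a macrophage covariate, all but that of Map1lc3b without both macrophage-rich TG libraries, and that of Atg10 also with the acinar covariate and in 4 of the 8 rows that leave out 1 library.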

How the data were processed

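RNA of mouse pancreatic islets was sequenced in 8 libraries, 4 per group. The authors deposited raw read counts per gene, 1 table per library. Per the submitters' processing notes, STAR 2.7.10a, HTSeq 0.11.3 and the mm39 genome were used. The strand setting and the annotation release are not given in the sources used here. Per the file contents, 25.3% to 31.5% of the reads in each deposited count table were in the entry for no feature and 3.74% to 4.36% in that for ambiguous reads, and neither entered library sizes or tests.

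Symbols were matched for 52081 of 55414 identifiers. Counts were filtered (filterByExpr, minimum count 10), scaled with TMM and tested with edgeR 4.0.16 (robust quasi-likelihood F test, two-sided, Benjamini-Hochberg over 20509 genes, called under 0.05) in R 4.3.3. CPM use the scaled library sizes. Intervals at 95% come from the same fit. Alternatives were DESeq2 1.42.0, limma-voom (limma 3.58.1), 3 other scalings (median-of-ratios, upper-quartile, and TMM without the 50 most abundant genes), a stricter filter (1 CPM or more in 4 libraries) and none at all, a replicate block, covariates (mean log2 of CPM plus 0.5 over a marker list), and each library left out. Leaving out 2 TG libraries together was added after seeing the data.

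In 5 simulations of this comparison on 20509 genes with 200 changed in each, edgeR called 49.7% of 1.5-fold, 86.5% of 2-fold and 95.6% of 4-fold changes among genes of at least 5 CPM, and 46 of its 566 calls (8.13%) were false. Far fewer genes were changed there than the 4129 called in these data. A call in the simulations therefore needed a lower unadjusted p, and these shares need not hold for these data.

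Exon lengths and overlaps are from GENCODE M21 (GRCm38) and promoter windows from RefSeq (GRCm38.p6), so neither is of the build used for counting. A comparison of the protein sequences is not analysed here. The members and lists were chosen with earlier results of these data known. Named are all 37 members, up to 4 called genes with the lowest adjusted p of each other list, and Atf4, Ddit3 and Ins2 as checks. Ins2 was lower in TG (log2 -1.05, adjusted p = 5.29e-06 by edgeR). Of the other marker lists, alpha, delta and PP cells had 0 of 6 called (1 with an unadjusted p under 0.05), peritoneal-type macrophages 4 of 7 higher, lymphocytes 2 of 6 (4 tested) and Schwann cells 2 of 5.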

Additional observations from a re-analysis of the deposited data

Results flagged for a closer look

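Values of single libraries were compared within groups of 4 for 63 genes (126 groups), and a library was singled out where its gap to the nearest other exceeded Dixon's 95% critical share of the group's range. This held in 8 groups, and chance gives about 1 in 20 groups. Wipi1 in WT replicate 4 was at 57.5 CPM, with the other WT libraries at 40.0 to 42.5; without that library its log2 difference was 0.83. Map1lc3a in TG replicate 4 was at 17.5 CPM (others 20.0 to 20.1). Sqstm1 in TG replicate 2 was at 616 CPM (others 525 to 534). Atg4d in WT replicate 2 was at 38.8 CPM (others 35.01 to 35.5). Atg2a in TG replicate 2 was at 20.4 CPM (others 23.5 to 23.7), and Atg2b in TG replicate 1 at 52.7 (others 65.5 to 66.5). Among the other named genes, Ctsc in TG replicate 1 was at 40.0 CPM (others 33.2 to 34.0), and Bcl2 in TG replicate 2 was at 11.5 (others 15.3 to 15.5).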

How the results depend on the processing

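Over 740 recomputed values of the 37 genes, 19 lost their call, 2 gained one and 0 called values reversed in sign. Another 14 uncalled values changed sign and moved by at least the SE of the reported fit. The other 705 kept their side of the threshold and their sign, or changed sign by less than that SE. Within these 705 the size of a move was not limited: Rb1cc1 ran from 0.03 to 0.38, beside 0.09 as reported (SE 0.0841). By edgeR with the vascular and stromal covariate, 0 members were called higher and 0 lower, 125 and 190 of all genes, 0 and 0 of the other autophagy genes, 0 and 0 of the lysosomal genes, and 1 and 0 of the upstream genes. With the macrophage covariate the counts were 0 and 0 of the members, 102 and 127 of all genes, 0 and 1 of the other autophagy genes, 0 and 0 lysosomal, and 0 and 0 upstream. Without both macrophage-rich TG libraries, a choice made after seeing the data, they were 1 and 0 of the members, 1267 and 987 of all genes, 2 and 4 other autophagy, 4 lysosomal higher, and 2 and 3 upstream. The acinar covariate left 0 members and 2 lysosomal genes lower, and upper-quartile scaling gave 2 members lower. The cause of these changes was not tested, beyond larger standard errors with the covariates.

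Leaving out 1 library at a time gave 4 to 4 members higher and 0 to 2 lower, 1691 to 2622 and 1122 to 2131 of all genes, 3 to 5 and 3 to 9 other autophagy genes, 8 to 9 and 2 to 8 lysosomal genes, and 4 to 6 and 5 to 10 upstream genes. DESeq2 and the fit with no filter, which span 48073 genes, had medians over all genes of 0.12 and 0.11, and called the same 5 members. Same-numbered libraries correlated at 0.02 to 0.12 in their deviations, and differently numbered ones at -0.19 to 0.18. The numbers were not taken to pair the libraries, but pairing is not excluded. With the replicate block the standard errors of the members were 0.933 times as large at the median, and 4 members were higher and 1 lower. In that fit 9 lysosomal genes were lower in place of 5, with no other count moved beyond 1.5 times. Of the named genes, Ambra1 lost its call there (adjusted p = 0.0503 by edgeR). In the simulations, which changed far fewer genes than were called in these data, a 1.5-fold change was called in 49.7% of genes of at least 5 CPM. That share need not hold for these data, and an uncalled gene is not shown to be unchanged.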
